A study of Mus musculus with 2 samples.

Results

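The genes described here encode 3 families of RNA-binding proteins that steer the splicing of messenger RNA precursors: SR proteins (symbols starting with Srsf), heterogeneous nuclear ribonucleoproteins (Hnrnp) and RNA-binding motif factors (Rbm followed by a digit). They were chosen by symbol alone among the probe sets that the platform annotation pairs with 1 gene. That gave 65 genes of 18193 named ones and 186 of 45101 probe sets: 10 SR protein genes with 33 probe sets, 19 hnRNP genes with 58 and 36 RBM genes with 95. Among the RBM symbols, Rbm3os and Rbm46os name opposite-strand transcripts and not proteins.

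Expression was measured on 2 Affymetrix arrays of mouse cerebral cortex, each a pool of animals. One array received RNA mixed from 3 wild-type males, and the other received RNA mixed from 3 males titled KO, in a study of Gnmt knockout mice; the plots call the latter knockout-labelled. All mice were aged 4 weeks and of the mixed 129/B6 strain, and the sources used here give neither the design of the deletion nor the breeding of the mice. Gnmt encodes glycine N-methyltransferase, which uses S-adenosylmethionine to methylate glycine. With 1 array per group there was no replicate, so no difference was tested, and each value describes these pools only.

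The KO-titled sample could not be checked by its target. Its genotype entry reads wild-type, and Gnmt, with a single probe set, read 10 units in wild-type cortex and 21.5 in the KO-titled pool, both under the detection floor of 64.2 units. Against the male labels, Xist, the RNA of the inactive X chromosome, was higher there by 39.6-fold or more. Of 7 pituitary marker genes on the array, Gh was 117-fold lower there, and Prl, Cga and Lhb were above the floor in wild-type cortex alone. Over all 12251 genes that reached the floor on both arrays, 18.3% were lower there by 1.5-fold or more and 12.5% higher. At 1.5-fold, lower signals in the KO-titled pool were found for 1 of 8 neuron, 4 of 8 astrocyte, 1 of 7 oligodendrocyte, 4 of 7 microglia and 1 of 6 endothelial markers, and 1 microglia marker was higher. The part of these differences in the ratios below was not tested. The control probe sets at the 3' and 5' ends of actin had a signal ratio of 3.71 in wild-type cortex and 3.76 in the other, and those of Gapdh 0.93 and 1.02. The actin signals themselves were higher in the KO-titled pool, at 25266.7 (3') and 6726.2 units (5') against 9207.1 and 2482.2 in wild-type cortex. Those of Gapdh were lower there, at 20733.9 and 20360.1 units against 24144.6 and 25906.9. Why these controls differ between the pools was not tested. In bulk tissue, fewer cells of a type and less RNA per cell cannot be told apart.

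SR proteins carry RNA recognition motifs and a tail rich in arginine and serine. They bind exons, help the spliceosome to recognise weak splice sites and shuttle with the mature message, and kinases of the SRPK and CLK families phosphorylate the tail. hnRNPs coat nascent transcripts and often oppose SR proteins by keeping exons out, while RBM factors are a loose group that sit in the spliceosome, the exon junction complex, RNA methylation or RNA decay complexes. Many of these genes limit their own output: their transcripts can retain an intron or include an exon that stops translation early, and such forms are kept in the nucleus or destroyed by nonsense-mediated decay. One gene can thus yield several RNAs, and probe sets placed on different parts of it need not measure the same one.

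A probe set was called measured when its signal reached the floor on both arrays. The log2 ratio of KO-titled over wild-type pool signal was centred on the median of all measured probe sets, and a gene was represented by its brightest measured probe set. All 10 SR protein genes, all 19 hnRNP genes and 29 of the 36 RBM genes were measured. Of these 58 genes, 11 were higher in the KO-titled pool by 1.5-fold or more, 8 were lower by as much, and 39 lay between these limits. Over all 12251 measured genes, 12.5% were higher and 18.3% lower by the same rule, against 19.0% and 13.8% of the members. At 2-fold, 2 members were higher and 5 lower, against 3.47% and 6.74% of all genes. The brightest probe set had the highest mean log2 signal over both arrays, so a high signal in 1 pool can decide the choice. In the 2 higher members, Rbm6 and Rbm33, another probe set was brighter in wild-type cortex, with ratios of -1.42 and -0.10. In the 5 lower members the chosen probe set was the brightest measured one in both pools. The error of a single probe set was read from the difference within the brightest pair of each of 5375 genes. It was the SD of that difference divided by the square root of 2, which gave 0.58 in log2 ratio or 1.49-fold. For the 36 members with at least 2 measured probe sets it was 0.82. A 1.5-fold difference of a single probe set is therefore about as large as the error over all genes. It is smaller than the value of the members, but that value includes the widely split pairs of 2 genes. These are Rbm6 (2.60 and -1.42) and Rbm39 (-0.17 and 3.44), and the value was not computed without them. This error leaves out the spread between mice.

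**Figure D1:**
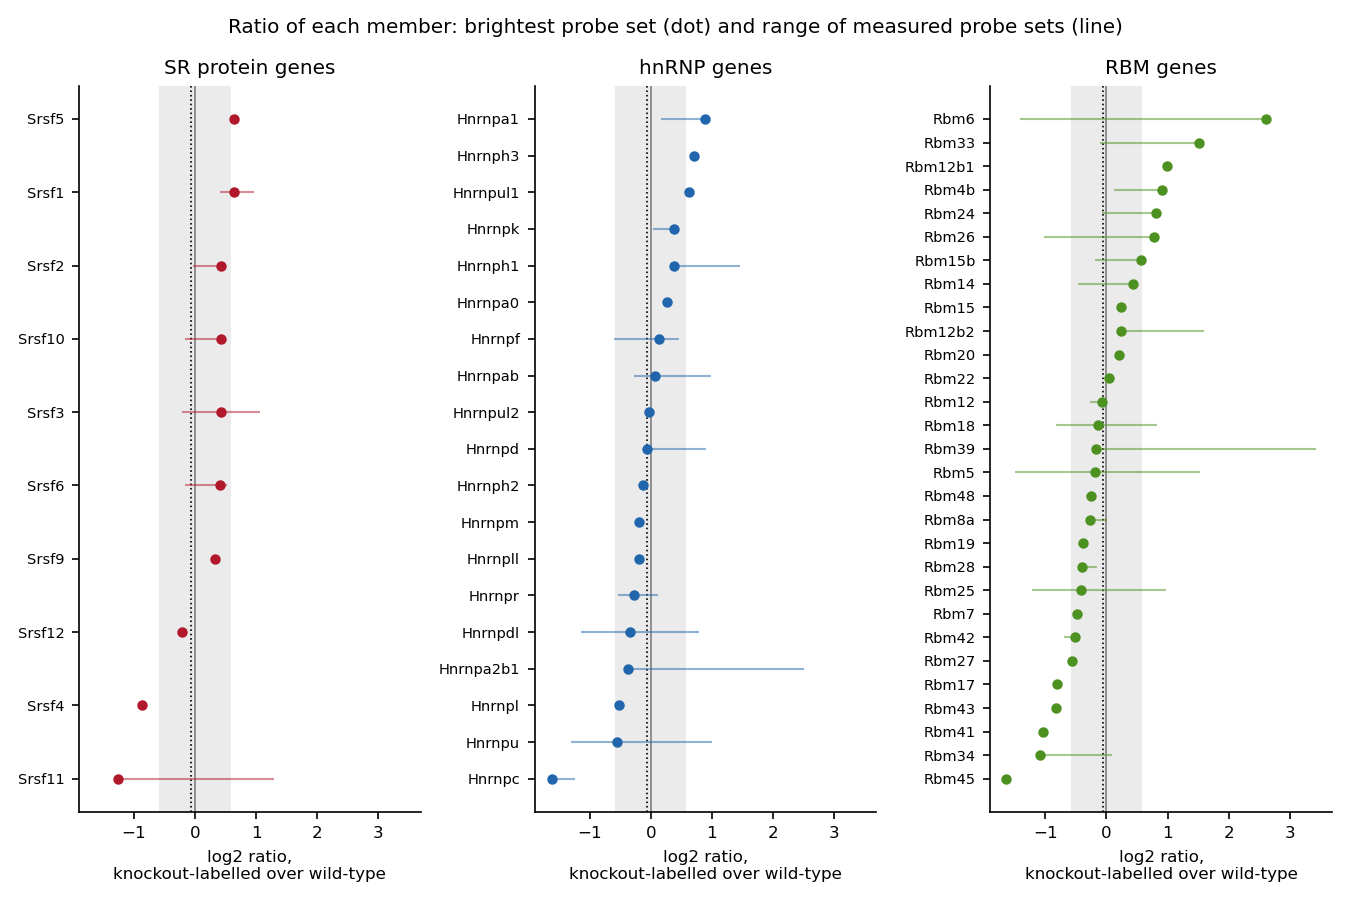
Each dot is the log2 ratio of KO-titled over wild-type pool signal of a gene's brightest probe set, and the line spans the measured probe sets of that gene; genes are on the vertical axis of each family's panel. The grey band marks 1.5-fold and the dotted line the median of all genes (-0.06). Hnrnpc lies left of the band with both of its probe sets, while Rbm6, Rbm39, Rbm5, Hnrnpa2b1, Srsf11 and Hnrnpu span from below 0 to far above it.

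Most SR protein genes had a slightly higher signal in the KO-titled pool, with 7 of 10 above 0. The median log2 ratio of the family was 0.41, against -0.06 over all measured genes, and 2 genes passed 1.5-fold in each direction. The median was -0.17 when probe sets whose suffix marks possible binding to several transcripts were left out. Srsf1 encodes the prototype of the family, an activator of splicing. Its brightest probe set gave 3454.8 units in wild-type cortex and 5399.2 in the KO-titled pool, 1.55-fold higher. The other 5 measured probe sets had ratios of 0.40, 0.45, 0.77, 0.86 and 0.96, and 1 more was below the floor on both arrays. All 6 measured probe sets were thus above 0, and 4 of them were past 1.5-fold. These 4 all carry such a suffix, and the measured ones without it, at 0.40 and 0.45, stayed within 1.5-fold. The 7 Srsf1 probe sets list only 4 accessions, so they are not all independent.

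Srsf5 had 4526.4 units in wild-type cortex and 7086 in the other, 1.55-fold higher by its only probe set. Srsf2, which binds exonic enhancers and whose protein marks nuclear speckles, had 4109 and 5566 units and a ratio of 0.43. The other 3 Srsf2 probe sets lay between -0.03 and 0.05, so its higher signal came from 1 probe set of 4. Srsf10, a splicing repressor when dephosphorylated, had 639.6 and 863.3 units and a ratio of 0.42, with its lowest probe set at -0.16. Srsf3, the smallest SR protein, had 2639 and 3558 units and probe sets between -0.22 and 1.07. Srsf6 had 2560.4 and 3413.3 units, and Srsf9, by a single probe set, 852.5 and 1075.6 units. Of the genes in this group, Srsf5 passed 1.5-fold and the others stayed within it by their brightest probe sets.

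The lower SR genes were Srsf4 and Srsf11. Srsf4 gave 1743 units in wild-type cortex and 962.7 in the KO-titled pool, 1.83-fold lower by its only probe set. Srsf12 had 618.6 and 540.4 units, within the probe set error. Srsf11, which takes part in the inclusion of microexons in neurons, was split between its probe sets. The brightest one had 3863.1 units in wild-type cortex and 1626.6 units in the other, a log2 ratio of -1.26, and the next had 1211.7 and 834.2 units and a ratio of -0.55. The dimmer pair was higher in the KO-titled pool, at 229.7 and 526.9 units (1.19) and at 84 and 207 units (1.29). The 4 probe sets of this gene therefore gave opposite directions, and their median of 0.32 opposes the brightest.

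Among the hnRNPs, Hnrnpc stood out as lower. It was the only member with at least 2 measured probe sets that were all past 1.5-fold in 1 direction; over all 5375 genes with at least 2, 6.64% were all lower and 3.83% all higher. Hnrnpc binds uridine tracts in introns and keeps cryptic exons from being spliced in. One probe set gave 7261.9 units in wild-type cortex and 2387.8 in the KO-titled pool, 3.07-fold lower, and the other gave 2042.6 and 872.6 units, a log2 ratio of -1.24. One more was below the floor on both arrays.

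The other hnRNP genes had a narrow spread by their brightest probe sets. The family's median was -0.07, close to the -0.06 of all genes, with 3 of 19 genes past 1.5-fold on the higher side, 1 on the lower side and 15 between. Hnrnpa1, which represses exons and competes with SR proteins, had 1227.1 and 2292.6 units, 1.85-fold higher, and a second measured probe set at 0.17. Probe sets that the annotation pairs with Hnrnpa1 and other genes together, left out of the counts, lay within 1.5-fold at 0.28, 0.43 and -0.24. Hnrnph3, of the group that binds runs of guanines, had 574.9 and 946.5 units, 1.63-fold higher by its single probe set. Hnrnpul1, a relative of Hnrnpu, had 1571.3 and 2452.1 units, 1.55-fold higher, also by a single probe set. Hnrnpk, which binds cytosine-rich RNA, had 11246.2 and 14784.1 units and 4 probe sets between 0.03 and 0.38.

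Hnrnpab and Hnrnpdl, relatives of the AU-rich element binding protein encoded by Hnrnpd, lay within 1.5-fold by their brightest probe sets. Hnrnpab had 7894.9 units in wild-type cortex and 8358.3 in the other, but its 6 measured probe sets ran from -0.27 to 0.99, the highest with 2586 and 5171.1 units. Hnrnpdl had 11166.1 and 8932.8 units, a ratio of -0.33, while its 7 probe sets ran from -1.14 to 0.79. Hnrnpd itself had 2192.9 and 2110.3 units, and its other probe sets lay at 0.71 and 0.90. Hnrnpl, which binds CA repeats, had 256.6 and 181.1 units and a ratio of -0.51. The remaining hnRNP genes, Hnrnpa0, Hnrnpf, Hnrnph1, Hnrnph2, Hnrnpll, Hnrnpm, Hnrnpr and Hnrnpul2, had brightest ratios between -0.27 and 0.37. Dimmer measured probe sets past 1.5-fold lay at 1.47 in Hnrnph1 and -0.61 in Hnrnpf.

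Hnrnpu and Hnrnpa2b1 were split like Srsf11. Hnrnpu encodes a scaffold protein that ties RNA to chromatin. Its brightest probe set had 7353.4 and 5052.1 units, a ratio of -0.55, with others at -0.68 and -1.31, whereas a further pair had 568.7 and 1146.2 units, and 512.9 and 876.6 units, both past 1.5-fold on the higher side. Hnrnpa2b1, which represses exons and takes part in RNA transport in neurons, had 6844.3 and 5324.1 units by its brightest probe set, a ratio of -0.37. Its other 3 probe sets were higher in the KO-titled pool, at 2878.4 and 5667.8 units (0.97), 1230.3 and 2615.2 units (1.08) and 1143.1 and 6531.7 units (2.50). Hnrnpr, whose protein is found in axons of motor neurons, had a further probe set of this kind. Its 4 measured probe sets lay between -0.54 and 0.13, and 1 more gave 22 units in wild-type cortex and 681.5 in the other, at least 10.5-fold higher.

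The RBM genes, the largest family, had the widest range of brightest ratios, from -1.65 to 2.60, with a median of -0.17. The upper end was Rbm6, whose other measured probe sets were below 0. Past 1.5-fold were 6 of 29 genes on the higher side and 5 on the lower. These are 20.7% and 17.2%, against 12.5% and 18.3% of all genes and 20% in each direction for the SR proteins. Rbm45, a developmentally regulated neural RNA-binding protein, was lowest at 1802 units in wild-type cortex and 580.2 in the KO-titled pool, 3.13-fold lower by its only probe set. Rbm34 had 1003 and 477.4 units, 2.12-fold lower, but its second probe set was at 0.10. Rbm41, a component of the minor spliceosome, had 380.2 and 186.1 units, 2.06-fold lower, and its other probe set was above the floor in wild-type cortex alone (89.1 units). Rbm43 had 809.1 and 461.1 units, 1.77-fold lower, and Rbm17, a second-step splicing factor also called SPF45, had 1308.3 and 755.7 units, 1.75-fold lower. All of these except Rbm34 rest on 1 measured probe set.

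At the other end, Rbm33 had 428.5 units in wild-type cortex and 1230.9 in the KO-titled pool, 2.85-fold higher, with a second probe set at -0.10. Rbm12b1 had 108.7 and 217 units, 1.98-fold higher, and Rbm4b, the paralog of the splicing factor gene Rbm4, had 116.5 and 221.5 units, 1.89-fold higher, while its dimmer probe sets lay at 0.12 and 0.34. Rbm24, known for its part in muscle splicing, had 458.3 and 814.4 units, 1.76-fold higher. A second measured Rbm24 probe set was at -0.07, and 3 more were above the floor in the KO-titled pool alone, at up to 314.4 units (at least 4.86-fold). Rbm26, which acts in nuclear RNA decay, had a brightest ratio of 0.77 and a lowest of -1.02. None of these genes was past 1.5-fold with all of its probe sets where it had more than 1. In Rbm33, Rbm4b and Rbm26, a probe set other than the chosen one was brighter in wild-type cortex.

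Several other RBM genes lay within 1.5-fold by their brightest probe sets. Rbm8a, a core protein of the exon junction complex, had 1438 and 1204.4 units, and Rbm22, a protein near the catalytic centre of the spliceosome, had 809.2 and 839 units. Rbm15 and Rbm15b, which guide the methylation of adenosines in RNA, had ratios of 0.24 and 0.56. Rbm7, of the complex that hands nuclear RNA to the exosome, had 2760.7 and 2000.1 units and a ratio of -0.48. Rbm19 and Rbm28, nucleolar factors of ribosome assembly, were both at -0.39. The remaining measured genes Rbm12, Rbm12b2, Rbm14, Rbm18, Rbm20, Rbm27, Rbm42 and Rbm48 had brightest ratios between -0.56 and 0.43. Some of their dimmer probe sets were past 1.5-fold, at 1.60 in Rbm12b2, -0.83 and 0.83 in Rbm18 and -0.70 in Rbm42.

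The 7 RBM genes not measured on both arrays were low. Rbm11, a tissue-restricted splicing regulator, had 30.2 units in wild-type cortex and 121.2 in the other, at least 1.87-fold higher. Rbm38 and Rbm47 were just above the floor in wild-type cortex alone, at 93.4 and 66.5 units. Rbm44, Rbm46, Rbm3os and Rbm46os were below the floor on both arrays, and no ratio is given for them.

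Rbm39 had a gap of 3.61 in log2 ratio between its measured probe sets, the widest after Rbm6. Its product, also called CAPER alpha, works with U2AF at the 3' splice site. The brightest probe set gave 2447.5 units in wild-type cortex and 2194.7 in the KO-titled pool, a ratio of -0.17. The probe set drawn from the RefSeq transcript gave 459.7 and 410.8 units, also -0.17. By both of these, Rbm39 differed by less than the probe set error.

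The other 10 Rbm39 probe sets were all higher in the KO-titled pool. One had 148.4 units in wild-type cortex and 1621 in the other, a ratio of 3.44, and another had 74.5 and 487.3 units, a ratio of 2.70. A further 3 had 145.5 and 609.1 units (2.05), 74.1 and 302.6 units (2.02) and 171 and 652.4 units (1.92), and the weakest had 220.9 and 297.5 units (0.42). In the wild-type pool the last 4 probe sets were below the floor, at 45, 5.2, 1.9 and 1.2 units. In the KO-titled pool they had 1390.4, 1191.7, 517.3 and 595.6 units, at least 21.5-fold, 18.4-fold, 7.99-fold and 9.20-fold higher. These 12 probe sets are not independent: 10 of them list only 7 accessions, 2 of which serve more than 1 probe set, and the sources used here do not say which part of the gene each covers.

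**Figure D2:**
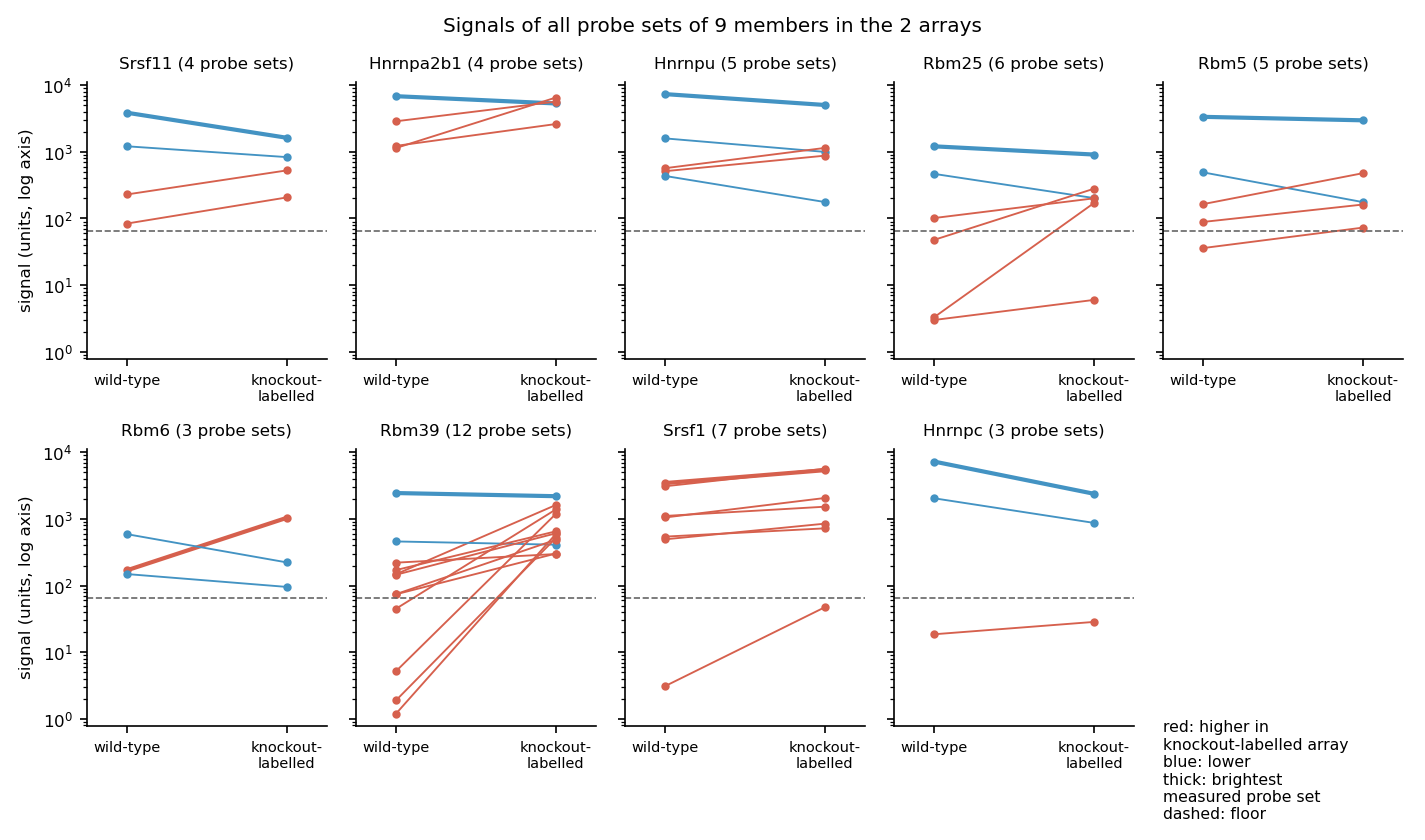
Signals of every probe set of 9 members in the wild-type and the KO-titled pool on a log axis; each line is 1 probe set, the thick line is the brightest measured one and the dashed line is the floor of 64.2 units. The 6 measured Srsf1 lines run upward and both measured Hnrnpc lines downward, while in Srsf11, Hnrnpu, Rbm25, Rbm5 and Rbm39 the brightest line runs downward and some dimmer lines upward.

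Rbm5 and Rbm6, neighbouring genes of related splicing regulators, were split as well. Rbm5 had 3354.2 units in wild-type cortex and 2972.9 in the other by its brightest probe set, a ratio of -0.19. A second probe set had 492.1 and 176 units (-1.50), and 2 others had 164.4 and 478.7 units (1.53) and 88.8 and 162 units (0.86). Rbm6 had 169.7 and 1040.2 units by 1 probe set (2.60), but 590.9 and 222.8 units by the next (-1.42) and 148.9 and 95.5 units by the dimmest (-0.65). The gap of 4.02 in log2 ratio between the Rbm6 probe sets was the widest of all members, and the direction of the gene depends on the probe set read.

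Rbm25, a factor that joins U1 snRNP to 5' splice sites, followed the same course. Its brightest probe set had 1210.4 and 911.4 units (-0.42) and the next 467.2 and 202.5 units (-1.22). Another had 101.6 and 200.7 units (0.97), and 2 more were above the floor in the KO-titled pool alone, at 47.8 and 279.7 units and at 3.3 and 170.5 units, at least 4.32-fold and 2.63-fold higher. One more was below the floor on both arrays.

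Probe sets at least 4-fold apart in ratio were found in 7 of the 36 members with at least 2 measured probe sets (Rbm6, Rbm39, Rbm5, Hnrnpa2b1, Srsf11, Hnrnpu and Rbm25). Over all genes with at least 2 the share was 7.63%, but members had more probe sets. Among genes with 4 or more measured probe sets, 20.3% of 808 genes and 5 of 17 members were that far apart. The count of 7 was the same after loess, which removes any trend of the ratio with signal, and was 2 with the floor at the 60th percentile, which leaves out dim probe sets. Of the 36, 8 held both a probe set past 1.5-fold on the higher side and one on the lower side, against 5.75% of all such genes. That share too is from genes that mostly had fewer probe sets than the members, and no matched share was computed. Of the 186 member probe sets, 15 were above the floor in the KO-titled pool alone (7.48% of all probe sets with 1 gene) and 3 in wild-type cortex alone (4.07%). Among the 147 measured, 37 were higher and 20 lower, against 16.5% and 18.1% of all. The median of a member's other probe sets lay above its brightest one in 19 of 36 members, and in 51.5% of all genes.

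The share of higher probe sets differed with the kind of sequence it was drawn from. The annotation lists a database accession for most probe sets, which was sorted by its prefix into RefSeq transcripts, other cDNAs and expressed sequence tags (ESTs, short reads of single clones that include unspliced and alternative forms). Of 25 measured member probe sets from RefSeq transcripts, 5 were lower by 1.5-fold or more and 0 were higher. Of 74 from ESTs, 27 were higher and 7 lower, with medians of -0.16 for RefSeq transcripts and 0.39 for ESTs. The 28 from other cDNAs lay between, with 6 higher, 3 lower and a median close to 0.

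The same order was found over all genes. Among all measured probe sets with 1 gene, 9.59% of those from RefSeq transcripts and 20.8% of those from ESTs were higher, 23.2% and 14.9% were lower, those from other cDNAs had 12.4% higher and 20.5% lower, and the medians were -0.17 and 0.07. Without Rbm39, 22 of 67 member probe sets from ESTs were higher, with a median of 0.31. Within genes that had both kinds, the median of the EST probe sets lay above that of the RefSeq and other cDNA probe sets in 9 of 14 members and in 63.4% of 1879 genes. The EST probe sets were at least 1.5-fold above in 5 of 14 members and in 28.2% of all such genes, so the members' share is near the background. The 5 were Rbm6, Rbm39, Hnrnpa2b1, Rbm26 and Hnrnpd, while Srsf11 and Hnrnpr went the other way. A list of 8 long noncoding RNAs, most of them nuclear, lay on the same side. Of these, 7 passed 1.5-fold on the higher side, against 12.5% of all genes, with a median of 0.99. The summed signal was 28104 units in wild-type cortex and 47926 in the other, most of it from Meg3 and Snhg11, both at 0.62. The highest were Rian, Kcnq1ot1 and Miat at 2.27, 1.57 and 1.36, with second probe sets at 0.76, 1.13 and 0.21. The part of these noncoding RNAs in the ratios of the EST probe sets was not tested.

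**Figure D3:**
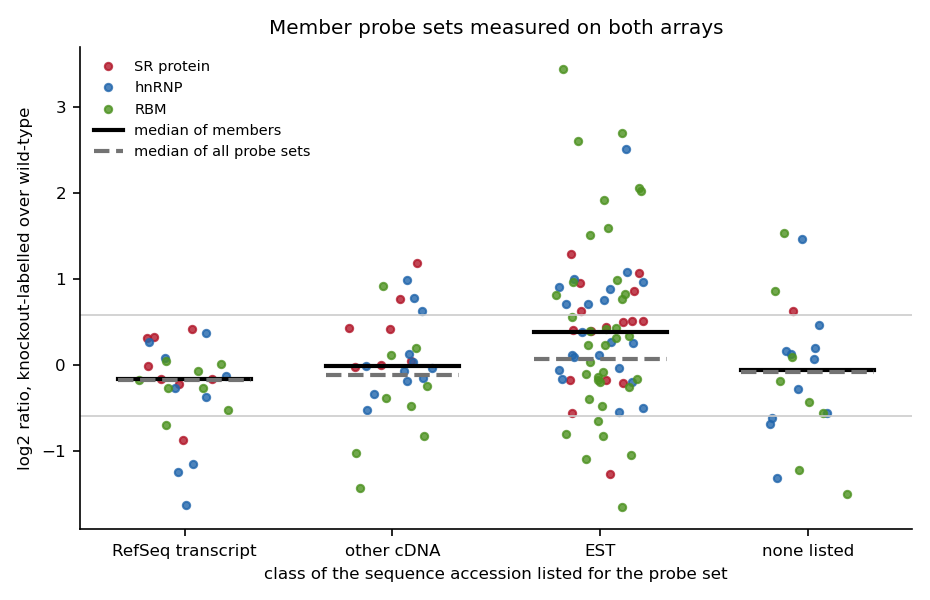
Log2 ratios of the 147 member probe sets measured on both arrays, grouped by the class of the accession listed for the probe set; points are coloured by family, the black bar is the median of members and the dashed bar the median of all probe sets with 1 gene. No RefSeq point lies above the upper 1.5-fold line, while 27 of 74 EST points do.

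The promoter windows of Srsf1, Hnrnpc and Rbm39 are shown because Srsf1 had 6 measured probe sets that were all above 0, Hnrnpc was the member with all of at least 2 measured probe sets past 1.5-fold in 1 direction, and Rbm39 had 12 probe sets with widely differing ratios. They are RefSeq sequences of build GRCm38.p6, from 250 bases before to 50 bases after the annotated start, written 5' to 3' on the gene's strand. Capitals mark matches on either strand to 5 motifs. These were the CCAAT box, the ETS core with the letters CCGGAAG, the GC box with the letters GGGCGG, the TATA box with the letters TATAAA, and the palindrome CTCGCGAG. The windows are chr11:88047123-88047422 on the plus strand for Srsf1, chr14:52103972-52104271 on the minus strand for Hnrnpc, and chr2:156180189-156180488 on the minus strand for Rbm39, the more upstream of 2 windows of that gene.
Srsf1: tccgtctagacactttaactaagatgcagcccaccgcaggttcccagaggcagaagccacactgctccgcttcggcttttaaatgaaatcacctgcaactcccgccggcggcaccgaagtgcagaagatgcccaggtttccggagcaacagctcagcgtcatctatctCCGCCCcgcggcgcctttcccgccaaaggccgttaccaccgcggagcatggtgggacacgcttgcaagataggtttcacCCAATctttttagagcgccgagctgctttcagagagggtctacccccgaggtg
Hnrnpc: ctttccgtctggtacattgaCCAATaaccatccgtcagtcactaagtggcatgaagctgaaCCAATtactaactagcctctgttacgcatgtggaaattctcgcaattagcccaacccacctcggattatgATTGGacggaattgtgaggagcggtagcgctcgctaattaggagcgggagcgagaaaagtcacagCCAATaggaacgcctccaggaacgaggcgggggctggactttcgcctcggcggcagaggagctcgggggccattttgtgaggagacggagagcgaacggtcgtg
Rbm39: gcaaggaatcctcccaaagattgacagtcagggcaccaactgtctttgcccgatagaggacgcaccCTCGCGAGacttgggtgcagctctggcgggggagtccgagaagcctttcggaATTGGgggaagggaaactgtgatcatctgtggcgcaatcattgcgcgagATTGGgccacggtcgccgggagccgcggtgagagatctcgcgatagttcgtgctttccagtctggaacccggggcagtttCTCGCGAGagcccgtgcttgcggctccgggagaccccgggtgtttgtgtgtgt

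The Hnrnpc window holds 4 CCAAT matches, the Srsf1 window 1 CCAAT and 1 GC box, and the Rbm39 window 2 CCAAT and 2 CTCGCGAG matches. Of the 65 members, 56 matched 72 windows in the RefSeq table of 32851. CCAAT was in 44.4% of member windows and 37.4% of all windows, the GC box in 63.9% and 35.7%, the ETS core in 20.8% and 8.86%, and TATAAA in 9.72% and 13.6%. CTCGCGAG, chosen after it was seen in the Rbm39 window, was in 7 member windows (9.72%) and in 0.92% of all windows. Member windows had a median of 25 CG dinucleotides against 7 in all windows, and in windows with at least 20 CG the shares were 12.7% and 2.91%. The 7 windows belong to Hnrnph1, Rbm15, Rbm26, Rbm39, Srsf10 and Srsf4, whose brightest log2 ratios ran from -0.87 to 0.77, so genes with this match were found on both sides of 0.

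The kinases that phosphorylate SR proteins had 4 genes with a higher signal in the KO-titled pool. Among 10 genes listed as SR protein kinases or their importer Tnpo3, the median was 0.37, and 4 passed 1.5-fold on the higher side and 0 on the lower, against 12.5% and 18.3% of all genes. The direction of this median depends on the probe set read. It was -0.13 with the median of each gene's probe sets, and -0.07 with the second brightest in the genes that had one. Clk4, a nuclear kinase of SR proteins, was highest, with 370.1 and 1168.2 units and a ratio of 1.65, although its second probe set gave 0.10. Clk1 had 2236.9 and 4076 units and a ratio of 0.85 by its only probe set, and Srpk3 had 488.6 and 983.8 units. For Prpf4b the brightest probe set read 0.97 and the next -1.13. Tnpo3, which carries SR proteins into the nucleus, was lowest at -0.58, but its 3 probe sets ran up to 2.12.

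The core spliceosome had a median of -0.17, and of 60 measured genes 18 passed 1.5-fold on the lower side and 6 on the higher, which is 30% and 10% against 18.3% and 12.5% of all genes. The median was -0.07 with the floor at the 60th percentile and -0.05 with quantile scaling. Sf3b5, a small subunit of the U2 snRNP complex SF3b, was the lowest measured gene with 2598.2 and 572.3 units (-2.19, second probe set -1.55). Snrnp48, of the minor spliceosome, was the highest measured one at 1.36, with its lowest probe set at -0.66. Ddx23 passed the floor in the KO-titled pool alone (31.6 and 179.5 units, at least 2.77-fold higher). Cwc22 passed it in wild-type cortex alone (204.4 and 49.3 units, at least 3.21-fold lower). SR-related proteins had a median of -0.06, and 9 of 38 passed 1.5-fold on the lower side and 4 on the higher. The speckle scaffold gene Srrm2 had 705.8 and 2488.2 units (1.81) and the cyclophilin gene Ppig 722.3 and 234.6 units (-1.63). Their second probe sets lay within 1.5-fold, at 0.47 for Srrm2 and -0.10 for Ppig. Other hnRNP-type proteins had a median of 0.18, with 7 of 24 past that limit on the higher side and 6 on the lower. Matr3, a nuclear matrix protein that restrains splicing, had 12898 and 4264.1 units (-1.61), and its 3 probe sets were all lower, down to -2.44. Khsrp, which binds AU-rich elements, was the highest measured gene of that list at 1.80, by a single probe set. Taf15 passed the floor in the KO-titled pool alone (32.6 and 308.7 units, at least 4.77-fold higher).

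Neuronal splicing regulators had 3 of 20 measured genes higher and 1 lower by 1.5-fold, with a median of 0.20. These are 15% and 5%, against 12.5% and 18.3% of all genes. The median was -0.0080 with the second brightest probe set and 0.04 without suffixed probe sets. Rbfox2 had the highest brightest ratio of that list, 3.44, with its other probe sets down to -0.75, and Mbnl1 the lowest, -0.77, with its second at 1.05. In the list of nonsense-mediated decay and exon junction factors, 1 of 9 measured genes was higher and 1 lower (11.1% each), with a median of -0.19. Upf2, which activates decay, had 1790.7 and 747.6 units (-1.27) by a single probe set. Smg1, the kinase that marks transcripts for decay through Upf1, had 547.1 and 978.5 units (0.83), with its 3 probe sets between 0.57 and 1.70.

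**Figure D4:**
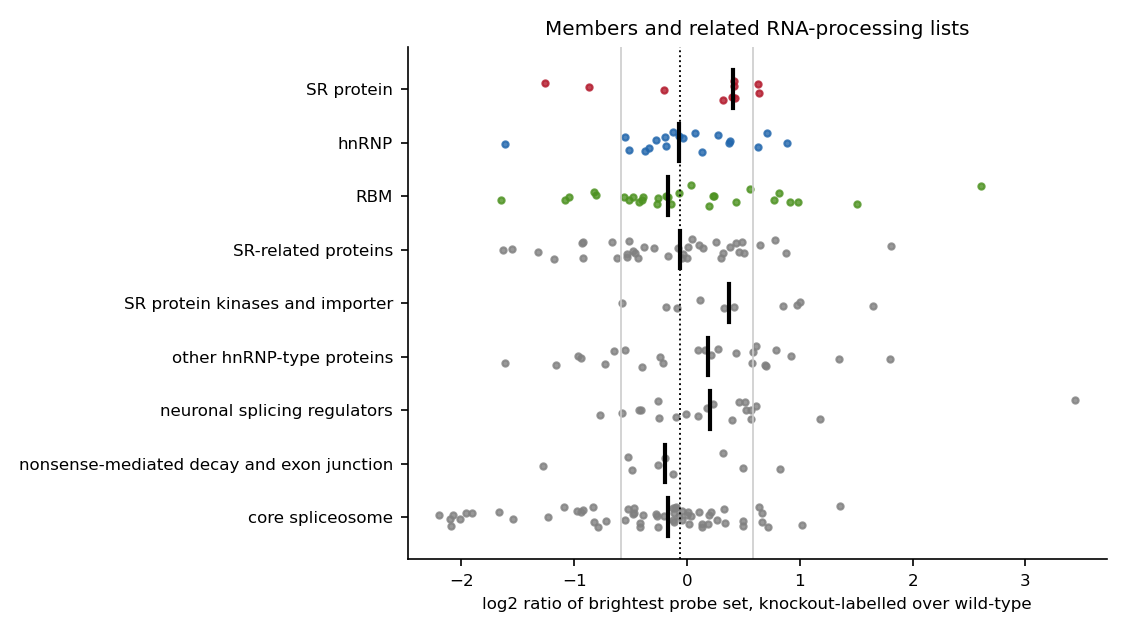
Log2 ratios of KO-titled over wild-type pool signal by brightest probe set for the 3 families and 6 related lists; each point is a gene, the black bar is the median and the dotted line the median of all genes (-0.06), with 1.5-fold in grey. By brightest probe set the SR proteins (0.41) and their kinases (0.37) have the highest medians, but the first is -0.17 without suffixed probe sets and the second -0.13 with the median of each gene's probe sets. The core spliceosome (-0.17) has 18 genes left of the lower 1.5-fold line.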

How the data were processed

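RNA was isolated with Trizol and turned into biotinylated cRNA for Affymetrix arrays, per the labels' protocols. The authors deposited linear intensities, a single value for each probe set on each array. The submitters' processing notes name GCOS, and the sources used here do not give a version, an algorithm or present calls. The mean after trimming 2% at either end was 500.003 on both arrays. Samples were grouped by title.

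The floor was the 40th percentile of all signals other than control probe sets, 64.2 units, used in place of present calls, and 23928 probe sets reached it on both arrays. Ratios were centred by subtracting 0.01 in log2. A signal below the floor on 1 array was replaced by the floor to give a lower bound. The platform annotation named 1 gene for 34945 probe sets, several for 932 and none for 9160, and 34741 took a current symbol through the RefSeq gene table.

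Named genes are the 4 highest and 4 lowest of each family, the 3 brightest of each, members above the floor on 1 array with a bound of 1.5-fold, members with all probe sets past 1.5-fold in 1 direction, the 6 widest gaps and the ends of each related list. Others, named to account for every member and to describe the kinases, related lists, nuclear RNAs and markers, were chosen after their values were seen. The members and lists were chosen with earlier results of these data known, and the comparison of accession classes was added after the data were seen. No p-value was calculated, since each group is 1 array, and this number of arrays limits the precision. The alternatives changed the floor, scaling, probe set or fold. Scripts were tested on simulated data. The software was Python 3.11.15, with matplotlib 3.10.9, statsmodels 0.14.6, scipy 1.17.1, pandas 2.3.3 and numpy 2.4.6.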

Additional observations from a re-analysis of the deposited data

Results flagged for a closer look

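Probe sets that the annotation pairs with several genes were outside the comparisons. Of these, 17 include a symbol of the 3 families, 15 were measured on both arrays, 4 were higher in the KO-titled pool by 1.5-fold or more and 2 were lower. Over all measured probe sets with 1 gene, 16.5% were higher and 18.1% lower by the same rule. The report did not use these 6 shared probe sets in its counts. A probe set shared by Rbm14 and Rbm4 had 266.8 units in the wild-type pool and 428.2 in the other, a log2 ratio of 0.67. Rbm3, which is induced by cold, had 1955.1 and 3139.4 units (0.67) by one probe set and 102 and 252.8 units (1.30) by another. Rbm4 had 98.2 and 1055 units by one probe set (3.41), but 467.1 and 411.6 units by a brighter one (-0.19). Both lower ones belong to Rbm10, with 769.9 and 502.8 units (-0.63) and 208.9 and 96 units (-1.13), while its brightest had 2480.8 and 2743.4 units (0.13). The probe sets of Rbm4 differed in the way described for Rbm39. Why they differ was not tested.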

How the results depend on the processing

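With 1 array per group no replicate could be left out, and no difference was tested. No paired analysis was possible because each group has 1 array. Of the recomputed counts and medians of the members, 76 stayed close to the reported value and 25 did not, and of those of the 6 related lists 42 did and 12 did not; the cause was not tested. Reading the second brightest probe set keeps only genes with at least 2 measured ones, which were 6 SR, 13 hnRNP and 17 RBM genes. Srsf4 and Srsf5, with a single probe set, drop out under it. SR genes lower (2 reported) were 1 with the median of all probe sets, 0 with the second brightest probe set and 1 at 2-fold, and SR genes higher (2) were 0 with no floor, 1 with the second brightest, 0 without suffixed probe sets and 0 at 2-fold. The SR median (0.41) was -0.17 without suffixed probe sets. hnRNP genes lower (1) were 2 with the floor at the 25th percentile, 3 with no floor, 2 with quantile scaling, 2 with the second brightest and 3 without suffixed probe sets. hnRNP genes higher (3) were 5 with the median of all probe sets, 5 without suffixed ones and 0 at 2-fold, and the hnRNP median (-0.07) was 0.10 and 0.13 under the first 2 of these. RBM genes lower (5) were 10 with no floor and 3 at 2-fold, RBM genes higher (6) were 2 with the second brightest and 2 at 2-fold, and the RBM median (-0.17) was -0.028 with quantile scaling. Members with probe sets 4-fold apart (7) were 2 with the floor at the 60th percentile and 19 with no floor, alternatives chosen after seeing the data. Among the related lists, the median of the second brightest probe sets was 0.46 for SR-related proteins, 1.51 for decay factors, -0.07 for kinases and -0.0080 for neuronal regulators, and the kinase median was -0.13 with the median of all probe sets. The value of 1.51 rests on Smg1 (1.70) and Smg5 (1.32), the only decay factors with a second measured probe set. Quantile scaling gave 0.06 for SR-related, 0.36 for other hnRNP-type proteins and for neuronal regulators, and -0.05 for the core spliceosome, which ranged from -0.34 without suffixed probe sets to that value. Single genes reversed where another probe set was read: Rbm33 (-0.10) and Rbm34 (0.10) with the second brightest, Rbm6 with the second brightest (-1.42), the median (-0.65) and the 60th percentile floor (-1.36), and Srsf11 with the median (0.32).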
